A study of Sus scrofa with 6 samples.

Results

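The genes described here encode the machinery that brings new proteins into the endoplasmic reticulum (ER) and carries them between the ER and the Golgi. They are the rows of the deposited table whose names begin with SEC and a pair of digits, with PDIA or TMED and a digit, or name an SSR, SPCS or COPI coat subunit, and that had at least 10 reads in at least 3 of the 6 libraries. The name pattern matched 50 of the 19271 rows that name a gene, and 48 of these met the count minimum. The 2 others, COPZ2 and SEC16B, had at most 8 reads in any library. All 48 members were among the 14091 genes tested, and 46 of them had 10 or more reads in all 6 libraries. The name pattern also takes in SEC14L1, SEC14L3 and SEC14L5, which encode lipid-binding proteins named after a yeast transfer protein and are neither coat nor translocon subunits.

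RNA was sequenced from pig oocytes of large follicles, 3 to 6 mm across (3 libraries), and of small follicles, 1.5 to 1.9 mm across (3 libraries). The ovaries came from prepubertal gilts killed at an abattoir, and the cumulus cells around each oocyte had been stripped off before extraction. All libraries were made with the same directional kit, and the study asked how oocytes of different developmental competence differ in their transcripts. The labels do not say whether the replicates came from separate collections, and p-values here rest on variation among these libraries that may be purely technical.

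Secreted and membrane proteins enter the ER through the Sec61 channel, helped by Sec62, Sec63 and the translocon-associated protein (TRAP) complex. The signal peptidase complex then removes the signal peptide, and protein disulfide isomerases form and rearrange disulfide bonds. Vesicles with a COPII coat carry cargo from the ER towards the Golgi, vesicles with a COPI coat return material to the ER, and p24 proteins of the TMED family are cargo proteins of both. The growing oocyte secretes its zona pellucida and growth factors by this route.

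Library totals ranged from 8015357 to 56887282 counts, and large-follicle library 3 was the shallowest. Over all genes tested it stood apart on the first principal component, with a score of 54.5 against -15.0 to -6.03 in the other libraries (39.2% of the variance). The members together took 0.480% to 0.503% of the counts in each library. Summed CPM (counts relative to the library total, scaled by edgeR's TMM factors) of 10 oocyte markers was 13330 to 15690 in large-follicle libraries, against 17790 to 19020 in small-follicle libraries (exact two-sided permutation test, p = 0.1, the smallest that 3 against 3 allows). Of these 10, 7 were lower in every large-follicle library, BTG4 was higher in every one, and MOS and OOEP overlapped. Summed markers of granulosa and cumulus cells (13 of 16 listed genes in the table, 7 with 10 or more reads in every library) lay between 156 and 213 CPM in large-follicle and between 146 and 252 CPM in small-follicle libraries (exact p = 0.7). KITLG alone supplied 88.3 to 110 CPM of each of these sums. The next largest varied more between libraries, INHBA from 9.04 to 65.0 CPM and SERPINE2 from 20.4 to 60.3 CPM. None of the 13 was at 0 in all libraries, though AMH, a granulosa hormone, was at 0 in large-follicle libraries 1 and 3. Theca and stromal markers summed to 23.5 to 27.8 and 25.1 to 27.1 CPM in large-follicle and small-follicle libraries (exact p = 1), and blood, immune and endothelial markers to 6.91 to 9.40 and 7.55 to 7.80 CPM (exact p = 1).

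No member passed a Benjamini-Hochberg adjusted p of 0.05 over all genes by edgeR's quasi-likelihood test, where 0.0639% of all genes tested passed. The 2 members closest to the threshold were SPCS3, a signal peptidase subunit (adjusted p = 0.104), and SEC63, a partner of the Sec61 channel (adjusted p = 0.138). DESeq2's own test called both, SPCS3 lower (adjusted p = 0.0250) and SEC63 higher (adjusted p = 0.0406) in large-follicle oocytes. These were its only 2 calls among the 48 members, beside 366 higher and 313 lower among the 19271 genes it was given. By limma on log2(TPM + 1) none of the 14091 genes tested passed. At an unadjusted p under 0.05, 4 members (8.33%) were higher on average in large-follicle oocytes and 4 (8.33%) lower, beside 9.85% and 8.17% of all genes tested. The shares of members were thus close to those of all genes. The median log2 difference of the 48 members, large minus small follicles, was -0.016, beside 0.0039 over all genes tested, and 23 members had higher and 25 lower means. Among the 45 members with at least 5 CPM in both groups the log2 differences lay between -0.59 (SEC31B) and 0.35 (SEC63), and the median SE of all 48 was 0.092.

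Levels in large-follicle and small-follicle oocytes did not overlap for 7 members. SEC63 and SEC62 were higher in every large-follicle library (4.17% of members, beside 12.1% of all genes tested). SPCS3, SEC24D, TMED4, TMED9 and SEC14L3 were lower in every large-follicle library (10.4%, beside 11.6% of all genes tested). These shares were below the background for higher levels and close to it for lower ones. SEC14L3 had 8, 11 and 3 reads in large-follicle libraries and 28, 14 and 23 in small-follicle libraries. It met the minimum of 10 reads mainly through the small-follicle libraries, so the membership rule itself favoured its lower direction.

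**Figure D1:**
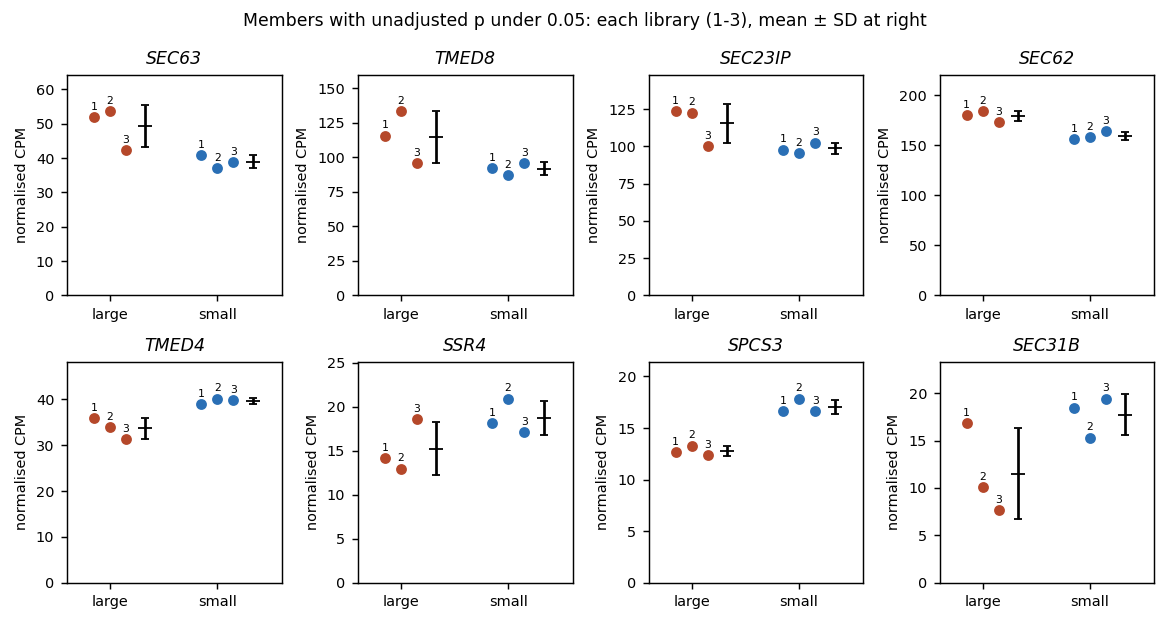
Normalised CPM (vertical axes, from 0) of the 8 members with an unadjusted p under 0.05, for the 3 large-follicle libraries (left, red) and the 3 small-follicle libraries (right, blue) of each, numbered by replicate, with the mean ± SD in black. SPCS3, at 12.4 to 13.3 CPM in large-follicle libraries against 16.6 to 17.9 CPM in small-follicle libraries, had the tightest separation, whereas large-follicle library 3 lay near the small-follicle values for TMED8, SEC23IP and SSR4.

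Among translocon genes, the helpers SEC62 and SEC63 had higher means in large-follicle oocytes, and the channel subunits did not. SEC63, which recruits the chaperone BiP to the channel, stood at 52.0, 53.6 and 42.2 CPM in large-follicle libraries 1, 2 and 3, against 40.8, 37.1 and 38.8 CPM in small-follicle libraries 1, 2 and 3. Every large-follicle value exceeded every small-follicle one, with large-follicle library 3 only just above. The log2 difference was 0.35 (SE 0.10), a 1.28-fold higher level. SEC62, which takes part in translocation of short precursors after their synthesis, stood at 180, 184 and 174 CPM in large-follicle libraries and 157, 158 and 164 CPM in small-follicle libraries. All 3 large-follicle libraries were higher here too, and the log2 difference was 0.17 (SE 0.067; adjusted p = 0.232 by edgeR). For SEC61A1 and SEC61A2, which encode alternative forms of the pore subunit, the log2 differences were -0.055 (SE 0.075) and -0.024 (SE 0.075). The large-follicle values of SEC61A1 were 313, 320 and 277 CPM, against 313, 319 and 315 CPM in small-follicle libraries, so that only large-follicle library 3 stood off. SEC61A2 stood at 231, 227 and 201 CPM in large-follicle libraries and at 223, 227 and 221 CPM in small-follicle libraries. The small subunit gene SEC61B differed by -0.029 (SE 0.12). SEC61G, the other small subunit, stood at 14.0, 16.0 and 19.8 CPM in large-follicle libraries, against 19.3, 20.1 and 19.7 CPM in small-follicle libraries. Large-follicle libraries 1 and 2 were below all small-follicle libraries, and library 3 was among them.

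TRAP and signal peptidase genes each held 1 subunit that stood off from its partners. In the TRAP complex, which aids the opening of the channel for some precursors, SSR1, SSR2 and SSR3 had log2 differences of 0.033 (SE 0.075), 0.068 (SE 0.092) and -0.074 (SE 0.10). SSR2 stood at 29.1, 27.4 and 29.0 CPM in large-follicle libraries, against 28.5, 28.2 and 24.6 CPM in small-follicle libraries, and the groups overlapped. SSR3 stood at 52.3, 44.6 and 39.5 CPM in large-follicle libraries, a range that enclosed the 47.2, 49.3 and 47.8 CPM of small-follicle libraries. SSR4 stood at 14.2, 13.0 and 18.6 CPM in large-follicle libraries, against 18.2, 20.9 and 17.1 CPM in small-follicle libraries. Its log2 difference was -0.33 (SE 0.15; adjusted p = 0.273 by edgeR), and large-follicle library 3 fell inside the small-follicle range. SPCS3, a subunit that supports the catalytic part of signal peptidase, stood at 12.7, 13.3 and 12.4 CPM in large-follicle libraries, against 16.6, 17.9 and 16.6 CPM in small-follicle libraries. Its log2 difference was -0.41 (SE 0.098), a level 0.754 times that of small-follicle oocytes, and library 3 lay with the other large-follicle libraries. SPCS1, another accessory subunit, stood at 41.4, 41.7 and 47.8 CPM in large-follicle libraries and 43.9, 52.6 and 46.0 CPM in small-follicle libraries, and the groups overlapped. SEC11A, a catalytic subunit, stood at 109, 105 and 136 CPM in large-follicle libraries, against 106, 118 and 115 CPM in small-follicle libraries. Its log2 difference was 0.044 (SE 0.10), and that of SEC11C, the alternative catalytic subunit, was -0.071 (SE 0.13). Large-follicle library 3 was the highest of all 6 for both, at 136 CPM for SEC11A and 56.2 CPM for SEC11C. A further subunit gene, SPCS2, is listed by an Ensembl identifier and so is not counted among the 48. It averaged 51.3 ± 2.28 CPM in oocytes of large follicles and 54.5 ± 1.09 CPM in those of small follicles (SD, n = 3 each), a log2 difference of -0.085 (SE 0.075).

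Of the 5 protein disulfide isomerases among the members, PDIA3 and PDIA4 were the most abundant members per length, and none had an unadjusted p under 0.05. P4HB, an isomerase outside the name pattern and so not a member, was lower in every large-follicle library. It averaged 104.5 ± 15.2 CPM in oocytes of large follicles and 139.6 ± 4.15 CPM in those of small follicles (SD, n = 3 each). Its log2 difference was -0.43 (SE 0.10, adjusted p = 0.104 by edgeR). PDIA4 stood at 462, 416 and 359 CPM in large-follicle libraries, against 361, 367 and 369 CPM in small-follicle libraries. Large-follicle libraries 1 and 2 were above all small-follicle libraries and library 3 was below them, and the log2 difference was 0.17 (SE 0.092; adjusted p = 0.353 by edgeR). PDIA3, the isomerase that works with calnexin and calreticulin on glycoproteins, stood at 242, 196 and 213 CPM in large-follicle libraries and 229, 245 and 248 CPM in small-follicle libraries. The groups overlapped, with a log2 difference of -0.15 (SE 0.089). PDIA6, PDIA2 and PDIA5 had log2 differences of -0.074 (SE 0.067), -0.13 (SE 0.14) and -0.021 (SE 0.090).

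**Figure D2:**
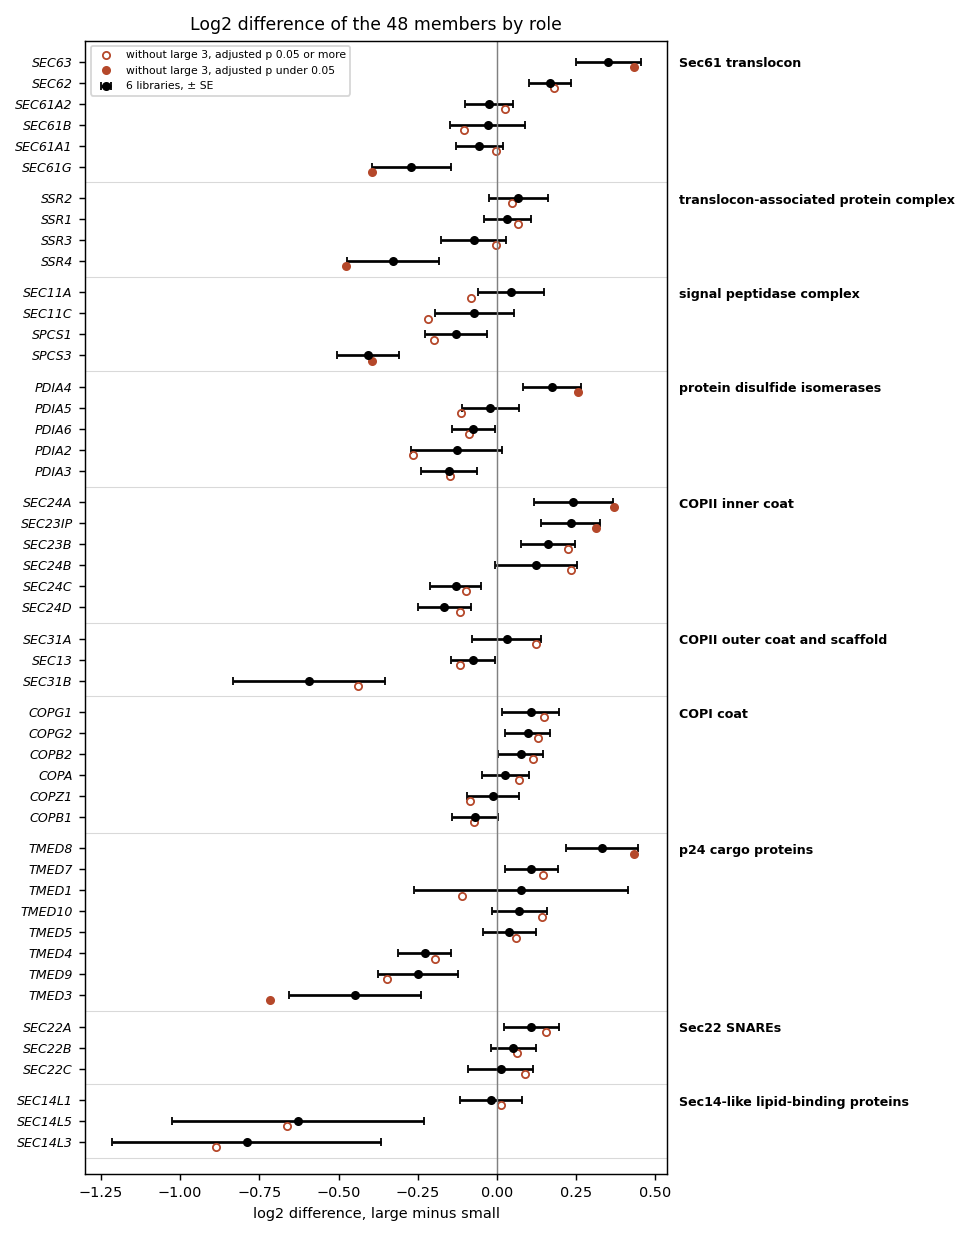
Log2 difference, large minus small follicles (horizontal axis), of each of the 48 members grouped by role, with all 6 libraries (black, ± SE) and without large-follicle library 3 (red). Filled red points are the 9 members with an adjusted p under 0.05 in that second comparison, among them SEC63 at 0.43 and TMED3 at -0.72.

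Within the COPII inner coat, which binds cargo and the small GTPase SAR1, the paralogs of the cargo-binding subunit had mean differences of opposite sign. SEC24A stood at 217, 199 and 148 CPM in large-follicle libraries, against 165, 150 and 164 CPM in small-follicle libraries. Libraries 1 and 2 of large follicles were the highest and library 3 the lowest of all 6. SEC24D stood at 106, 99.1 and 89.4 CPM in large-follicle libraries and 117, 106 and 108 CPM in small-follicle libraries, with large-follicle library 1 just under the lowest small-follicle value. The log2 differences were 0.24 (SE 0.12) for SEC24A, 0.12 (SE 0.13) for SEC24B, -0.13 (SE 0.081) for SEC24C and -0.17 (SE 0.085) for SEC24D. No SEC24 paralog had an unadjusted p under 0.05 (adjusted p between 0.338 and 0.648 by edgeR). Without large-follicle library 1, SEC24B was at -0.0225. SEC24A and SEC24B are close relatives of each other, as are SEC24C and SEC24D. Human SEC24A and SEC24B are known to prefer different cargo signals from human SEC24C and SEC24D. SEC23B, the partner that activates the SAR1 GTPase, had a log2 difference of 0.16 (SE 0.086). SEC23IP, which binds SEC23 at ER exit sites, stood at 124, 123 and 100 CPM in large-follicle libraries, against 97.8, 95.5 and 103 CPM in small-follicle libraries. Its log2 difference was 0.23 (SE 0.092; adjusted p = 0.229 by edgeR), and large-follicle library 3 lay within the small-follicle range.

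The ratio of reads of 1 SEC24 paralog to another within a library does not depend on how libraries are scaled. It was taken for all 6 pairs, a step chosen after the values had been seen. The ratio of SEC24A to SEC24D was 2.05, 2.0 and 1.66 in large-follicle libraries 1, 2 and 3, against 1.41, 1.41 and 1.52 in small-follicle libraries. SEC24A to SEC24C gave 2.48, 2.43 and 1.93 in large-follicle libraries and 1.75, 1.77 and 1.80 in small-follicle libraries. In both, every large-follicle library was higher, but the exact 95% binomial intervals of library 3, which cover counting error only, reached small-follicle values: 1.51 to 1.82 for SEC24A to SEC24D and 1.75 to 2.13 for SEC24A to SEC24C. For SEC24B to SEC24C the values were 0.591, 0.523 and 0.447 in large-follicle libraries, against 0.439, 0.446 and 0.441 in small-follicle libraries, and the interval of large-follicle library 3, 0.387 to 0.516, included all 3 small-follicle values. SEC24B to SEC24D and SEC24A to SEC24B were also higher in every large-follicle library, though the intervals of library 3 (0.334 to 0.443 and 3.78 to 4.93) again included all 3 small-follicle values. SEC24C to SEC24D overlapped (means 0.838 in large-follicle and 0.815 in small-follicle libraries). The 6 ratios share 4 genes and are a description. An exact test of 3 libraries against 3, where p cannot fall under 0.1, gave an adjusted p of 0.12 or more for all 6 pairs. It could therefore pass none of them.

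Outer coat and COPI genes were close to even, apart from SEC31B. SEC31B, a less widely expressed form of the outer coat subunit, stood at 16.9, 10.1 and 7.66 CPM in large-follicle libraries, against 18.5, 15.3 and 19.4 CPM in small-follicle libraries. Its log2 difference was -0.59 (SE 0.24; adjusted p = 0.244 by edgeR), and large-follicle library 1 lay inside the small-follicle range. SEC31A and SEC13, which build the outer cage, had log2 differences of 0.031 (SE 0.11) and -0.075 (SE 0.070). SEC13 stood at 117, 119 and 127 CPM in large-follicle libraries and 125, 130 and 127 CPM in small-follicle libraries. All 6 COPI members, COPA, COPB1, COPB2, COPG1, COPG2 and COPZ1, had log2 differences between -0.069 (COPB1) and 0.11 (COPG1), with SEs of 0.071 to 0.090. COPG2 stood at 161, 161 and 147 CPM in large-follicle libraries and 147, 143 and 149 CPM in small-follicle libraries, so that large-follicle library 3 lay within the small-follicle range. COPG1, the other form of the same subunit, stood at 68.2, 58.5 and 56.1 CPM in large-follicle libraries, against 55.5, 55.9 and 58.8 CPM in small-follicle libraries, where only large-follicle library 1 stood off. COPB1 stood at 270, 258 and 262 CPM in large-follicle libraries and 264, 297 and 268 CPM in small-follicle libraries. COPE, a COPI subunit listed by an Ensembl identifier and so not a member, averaged 37.6 ± 5.59 CPM in oocytes of large follicles and 42.6 ± 1.08 CPM in those of small follicles (SD, n = 3 each; log2 difference -0.19, SE 0.11).

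Genes of the TMED family differed among themselves in direction. TMED8, a Golgi dynamics domain protein named with the family, stood at 116, 133 and 95.7 CPM in large-follicle libraries, against 92.3, 87.0 and 96.0 CPM in small-follicle libraries. The log2 difference was 0.33 (SE 0.11; adjusted p = 0.176 by edgeR), and large-follicle library 3 lay among the small-follicle libraries. TMED4, a p24 protein, stood at 35.9, 33.9 and 31.4 CPM in large-follicle libraries and 39.0, 40.1 and 39.8 CPM in small-follicle libraries. All 3 large-follicle values were lower, and the log2 difference was -0.23 (SE 0.083; adjusted p = 0.196 by edgeR). TMED9, another p24 protein, stood at 13.2, 16.7 and 18.8 CPM in large-follicle libraries, against 19.1, 19.0 and 19.1 CPM in small-follicle libraries, with library 3 almost level with them. TMED3 stood at 7.03, 8.60 and 14.0 CPM in large-follicle libraries and 12.2, 13.4 and 13.1 CPM in small-follicle libraries. Large-follicle libraries 1 and 2 were the lowest and library 3 the highest of all 6, and the log2 difference was -0.45 (SE 0.21). TMED10, TMED7 and TMED5 had log2 differences of 0.071 (SE 0.087), 0.11 (SE 0.083) and 0.040 (SE 0.085). TMED1 had 10 to 54 reads per library and a log2 difference of 0.075 (SE 0.34).

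SEC22 genes encode membrane proteins related to the SNAREs that drive fusion of ER and Golgi vesicles. SEC22B, the SNARE of this step, stood at 98.0, 99.3 and 94.5 CPM in large-follicle libraries, against 90.8, 96.5 and 94.5 CPM in small-follicle libraries (log2 difference 0.052, SE 0.070). SEC22A stood at 34.6, 36.3 and 31.1 CPM in large-follicle libraries and 31.2, 32.7 and 31.3 CPM in small-follicle libraries (0.11, SE 0.087), and SEC22C differed by 0.012 (SE 0.10). The groups overlapped for all 3 genes. Of the lipid-binding SEC14L genes, SEC14L1 had a log2 difference of -0.019 (SE 0.098). SEC14L3 stood at 0.388, 0.199 and 0.370 CPM in large-follicle libraries and 0.495, 0.414 and 0.573 CPM in small-follicle libraries, which rests on 3 to 28 reads. SEC14L5 stood at 0.388, 0.489 and 0.494 CPM in large-follicle libraries and 0.672, 0.444 and 0.996 CPM in small-follicle libraries, on 4 to 40 reads.

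**Figure D3:**
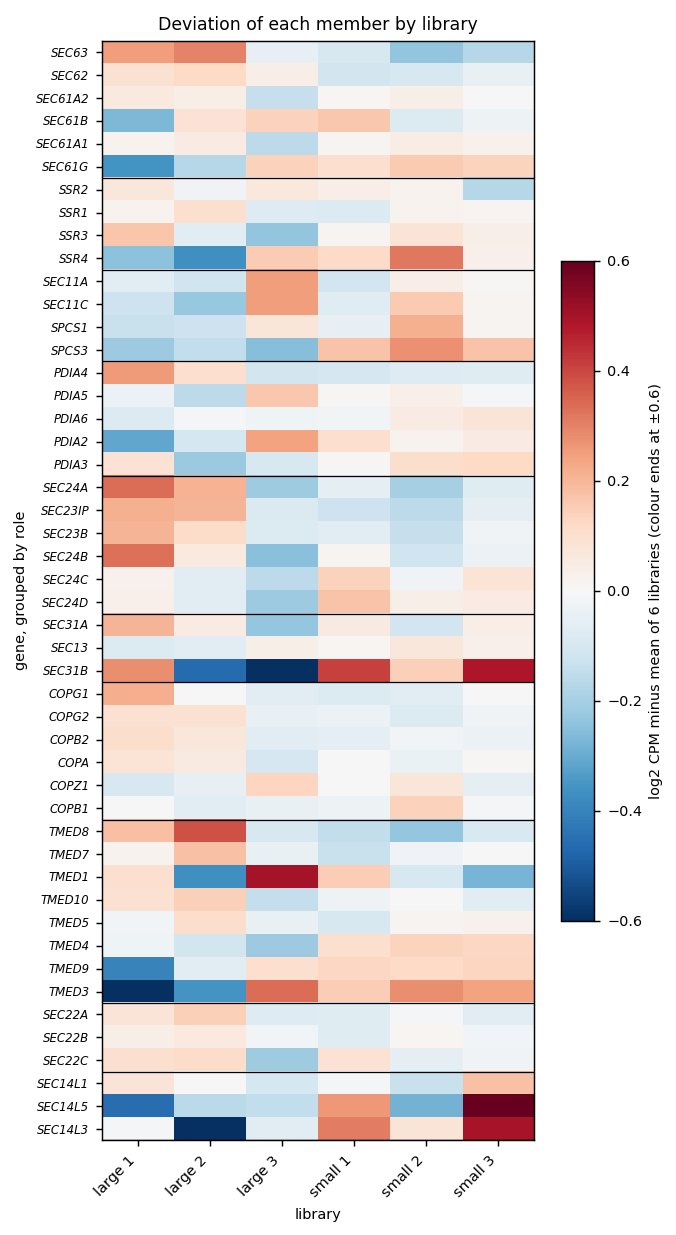
Log2 CPM of each of the 48 members in each library minus the mean of the 6 libraries (colour, red above and blue below the mean, ending at ±0.6), with libraries across and genes down, grouped by role. Large-follicle libraries 1 and 2 resemble each other, and library 3 often has the opposite sign, as for TMED3, SEC24A and PDIA4.

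Large-follicle library 3 was closer to the small-follicle libraries than to its own group, in the members and over all genes tested. It lay nearer the small-follicle mean than the mean of large-follicle libraries 1 and 2 for 36 of 48 members (75.0%), beside 56.9% of all genes tested. The median absolute log2 difference over the members was 0.23 and 0.18 between it and large-follicle libraries 1 and 2, and 0.11, 0.13 and 0.13 between it and small-follicle libraries 1, 2 and 3. Large-follicle libraries 1 and 2 lay 0.138 to 0.165 and 0.150 to 0.180 from the small-follicle libraries over the members. Over all genes tested the distances of library 3 were 0.27 and 0.24 to large-follicle libraries 1 and 2, and 0.21, 0.20 and 0.21 to the small-follicle libraries. Libraries 1 and 2 lay about as far from the small-follicle libraries there, at 0.20 to 0.23. Over all genes tested library 3 was thus far from its own group, but no nearer the small-follicle libraries than libraries 1 and 2 were. On the first principal component of the members alone (47.3% of the variance), large-follicle libraries 1, 2 and 3 scored -1.12, -1.24 and 0.34, and the small-follicle libraries 0.59 to 0.83. Summed granulosa and cumulus markers were highest among large-follicle libraries in library 3 (213 CPM, against 168 and 156 CPM in libraries 1 and 2) but lowest of all in small-follicle library 3 (146 CPM). INHA, an inhibin subunit of granulosa cells, stood at 3.59, 6.41 and 8.77 CPM in large-follicle libraries, against 22.1, 15.8 and 2.59 CPM in small-follicle libraries. The part of carried-over cells in the members' differences was not tested, and in bulk samples fewer cells and less RNA per cell cannot be told apart.

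Without large-follicle library 3, 5 members rose and 4 fell in large-follicle oocytes, in 2 libraries against 3. These were 10.4% and 8.33% of members, beside 7.79% and 5.37% of all 14429 genes tested there. SEC63 (log2 difference 0.43), TMED8 (0.43), SEC24A (0.37), SEC23IP (0.31) and PDIA4 (0.26) rose, edgeR's quasi-likelihood test giving them an adjusted p between 0.00991 and 0.0348. TMED3 (-0.72), SSR4 (-0.48), SEC61G (-0.39) and SPCS3 (-0.39) fell, with an adjusted p between 0.00913 and 0.0271 by edgeR. Of these 9 genes, SEC63 and SPCS3 alone kept non-overlapping groups once library 3 was counted again. With each of the 5 other libraries left out in turn, no member passed.

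Members differed from library to library along their relative length. Relative length was read from the deposited data as counts divided by TPM, set to 1 for the median gene. It is the length behind the TPM values, not the span of a gene on its chromosome. Spearman's correlation of a member's log2 deviation with its relative length came to 0.42 and 0.44 in large-follicle libraries 1 and 2 and -0.56 in library 3, against -0.046, -0.38 and -0.15 in small-follicle libraries 1, 2 and 3 (48 genes each, which share a library and its depth). Over all genes tested the values had the same signs and were smaller, at 0.15, 0.15 and -0.14 in large-follicle libraries and -0.031, -0.18 and -0.052 in small-follicle libraries. Among the 24 longer members 15 had higher means in large-follicle oocytes (median log2 difference 0.035), and among the 24 shorter members 8 did (median -0.042). Over all genes tested the medians were 0.033 for the longer and -0.022 for the shorter genes. SSR4 had the shortest relative length of the members (0.184) and SEC22B the longest (2.07), and SPCS3 (1.11) was near the median gene. With the length trend of all genes taken out of each library, SPCS3 differed by -0.41, SEC63 by 0.33 and TMED8 by 0.31 on the log2 scale, and no member passed. This adjustment was chosen after seeing the data.

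**Figure D4:**
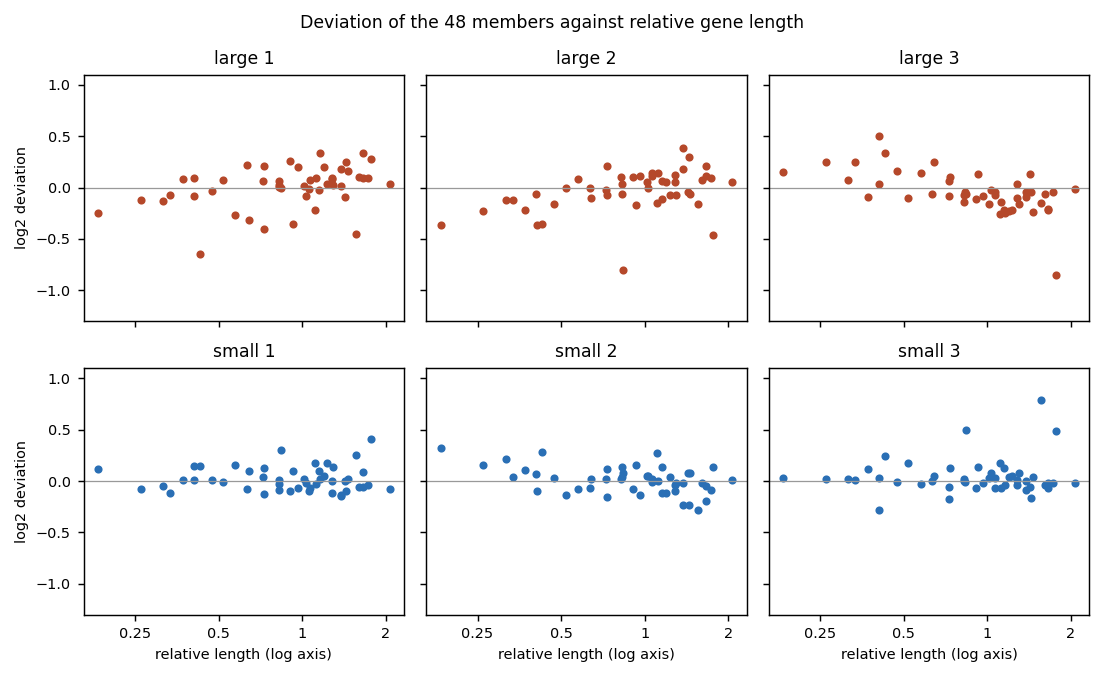
Log2 deviation of the 48 members from the mean of the 6 libraries (vertical axes) against their relative length (horizontal axes, log scale, counts divided by TPM, 1 for the median gene), 1 panel per library, large follicles above and small follicles below. Points rise with length in large-follicle libraries 1 and 2 (Spearman 0.42 and 0.44) and decline with it in large-follicle library 3 (-0.56).

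Levels per length, as TPM (the authors' deposited transcript abundance, a unit corrected for gene length and depth), spanned a wide range even within single complexes. PDIA3, with a mean of 473 ± 46.3 TPM in large-follicle and 528 ± 20.7 TPM in small-follicle oocytes (SD, n = 3 each), was the most abundant member. PDIA4 followed at 368 ± 49.0 and 328 ± 4.72 TPM in large-follicle and small-follicle oocytes, then SEC11A at 283 ± 36.1 and 275 ± 13.3 TPM. COPB1 (258 ± 5.82 and 272 ± 14.0 TPM), SEC61A1 (242 ± 22.6 and 253 ± 1.37 TPM) and SEC13 (241 ± 8.24 and 254 ± 2.16 TPM) came next, in the same order of groups. SEC61A1 exceeded SEC61A2 by 1.13 times in mean TPM and in all 6 libraries. In contrast, the small channel subunits, which pair with the pore subunit in equal numbers, averaged 72.8 TPM for SEC61B and 15.9 TPM for SEC61G over the 6 libraries. Signal peptidase genes ran from 279 TPM for SEC11A to 10.9 TPM for SPCS3, and TRAP genes from 157 TPM for SSR1 to 26.1 TPM for SSR3. The SEC24 paralogs ranked SEC24A (85.2 TPM), SEC24D (69.0 TPM), SEC24C (54.0 TPM) and SEC24B (29.0 TPM), an order that held in all 6 libraries. COPI genes ranked COPB1, COPB2, COPA, COPG1, COPG2 and COPZ1, with 265 to 65.4 TPM, and the last 3 changed places between libraries. Among TMED genes TMED8 and TMED7 (61.0 and 58.2 TPM), TMED5 and TMED4 (27.0 and 25.9 TPM) and TMED3 and TMED9 (21.6 and 19.6 TPM) also changed places between libraries. TMED1 (1.74 TPM), SEC14L3 (0.394 TPM) and SEC14L5 (0.303 TPM) were the least abundant. All these orders rest on the lengths behind the deposited TPM. PDIA3 has a relative length of 0.372 against 0.908 for PDIA4, and in CPM PDIA4 was the higher (412.2 against 216.9 CPM in large-follicle oocytes, 365.7 against 240.6 CPM in small-follicle oocytes).

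**Figure D5:**
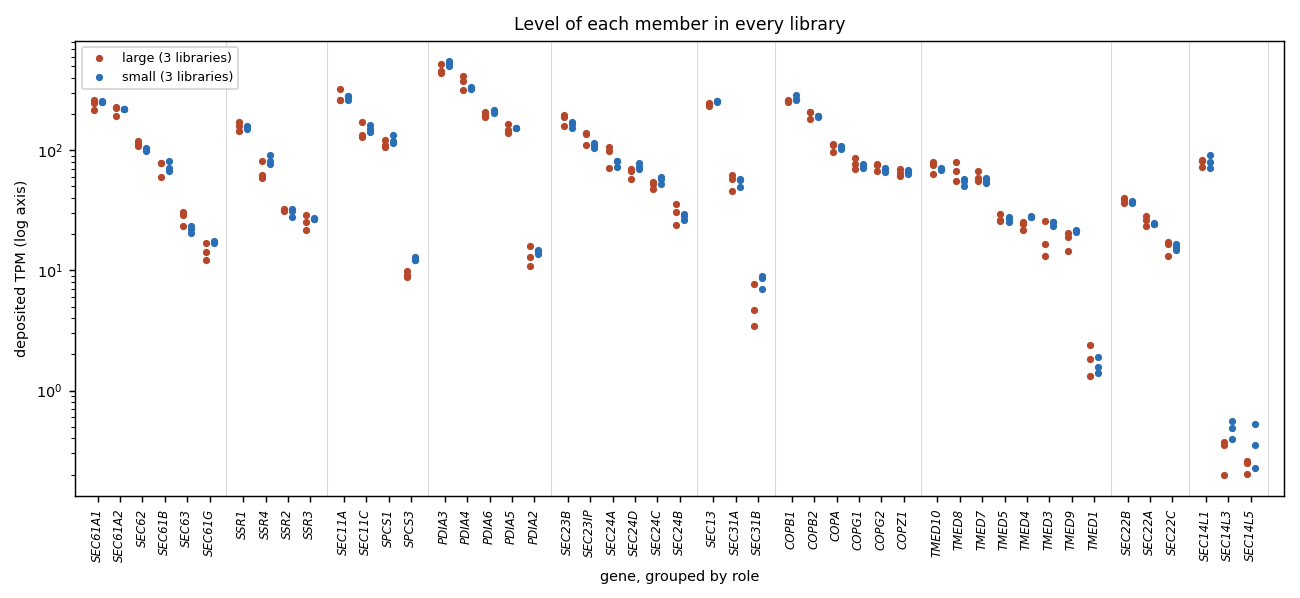
Deposited TPM (vertical axis, log scale) of each member in the 3 large-follicle libraries (red, left of each gene) and the 3 small-follicle libraries (blue, right), with genes grouped by role and ordered by mean. PDIA3, at a mean of 500.2 TPM over the 6 libraries, stands highest, and PDIA2, SPCS3, SEC31B, TMED1, SEC14L3 and SEC14L5 lie far below their relatives.

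In assembly Sscrofa11.1 the members are spread over the genome, by a RefSeq gene table in which 46 of the 48 symbols occur once. SEC63 lies on chromosome 1 from 74003428 to 74078605, SEC62 on chromosome 13 from 108660486 to 108688307, SPCS3 on chromosome 15 from 38790605 to 38802641 and SSR4 on chromosome X from 124537545 to 124541635. TMED8 lies on chromosome 7 from 100411259 to 100449350, TMED4 on chromosome 18 from 50698819 to 50702333, SEC23IP on chromosome 14 from 129758279 to 129810642 and SEC31B on chromosome 14 from 111585917 to 111626691. The closest members are SEC22A and PDIA5 on chromosome 13, 49387 bases apart, with log2 differences of 0.11 (SE 0.087) and -0.021 (SE 0.090). SEC24D and SEC24B lie on chromosome 8, 7665128 bases apart. Reads of close paralogs such as SEC61A1 and SEC61A2 or COPG1 and COPG2, and of small subunits with processed copies, may be shared by the authors' counting, so their split is uncertain.

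Other genes of the pathway, in 7 lists of 101 genes, gave 0 calls among 96 tested by edgeR's quasi-likelihood test (0.0639% over all genes). At an unadjusted p under 0.05, 8 of the 96 (8.33%) were higher on average in large-follicle oocytes and 14 (14.6%) lower, beside 9.85% and 8.17% of all genes tested, and their median log2 difference was -0.015. The ER folding and redox list, with 20 genes tested, held 7 of those 14 (35% of the list) and 1 of the 8 (5% of it). In it PRDX4, an ER peroxiredoxin, averaged 12.8 ± 2.85 CPM in oocytes of large follicles and 20.7 ± 0.847 CPM in those of small follicles (SD, n = 3 each; log2 difference -0.74, SE 0.14). ERP29, an ER folding factor, averaged 8.72 ± 2.24 and 15.1 ± 0.683 CPM in oocytes of large and small follicles (-0.75, SE 0.16). In the cargo receptor list, with 4 of 14 lower (28.6%) and 0 higher at that unadjusted level, YIF1A differed by -0.44 (SE 0.094) and SURF4, an ER export receptor, by -0.38 (SE 0.098). The list of the signal recognition particle and its receptor had 1 of 10 higher (10%) and 2 lower (20%) at that level. Its means were 5 higher and 5 lower (median log2 difference 0.0024). SRP54, the particle subunit that was higher, differed by 0.24 (SE 0.076). The lower were the receptor subunits SRPRA and SRPRB, at -0.38 (SE 0.084) and -1.02 (SE 0.30). SRPRB stood at only 1.22 ± 0.543 CPM in oocytes of large follicles and 2.73 ± 0.527 CPM in those of small follicles.

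The other 4 lists had 6 higher and 1 lower at that unadjusted level. Higher were 2 of 11 oligosaccharyltransferase genes (18.2%) and 2 of 12 unfolded protein response genes (16.7%). So were 1 of 12 COPII and COPI regulators (8.33%) and 1 of 17 tethers and SNAREs (5.88%), beside 9.85% of all genes tested. The lower was HERPUD1 (log2 difference -0.81, SE 0.32), 8.33% of the unfolded protein response list, beside 8.17% of all genes tested. That list had 5 higher and 7 lower means (median log2 difference -0.083). USO1, which tethers ER vesicles to the Golgi, stood at 83.9 ± 8.04 CPM in oocytes of large follicles and 66.7 ± 1.83 CPM in those of small follicles (log2 difference 0.34, SE 0.086), and NAPA differed by -0.14 (SE 0.077). MIA3, which loads large cargo at ER exit sites, differed by 0.24 (SE 0.078), and GBF1, an activator of ARF GTPases for the COPI coat, by 0.24 (SE 0.11). The oligosaccharyltransferase subunits MAGT1 and STT3B differed by 0.20 (SE 0.074) and 0.20 (SE 0.085). In the unfolded protein response list ATF6, a stress sensor that becomes a transcription factor, stood at 163 ± 16.2 CPM in oocytes of large follicles and 128 ± 2.91 CPM in those of small follicles (0.35, SE 0.085). MBTPS2, a protease that releases it, differed by 0.38 (SE 0.11). Without large-follicle library 3, 8 of the 96 rose (8.33%, beside 7.79% of all genes tested there) and 13 fell (13.5%, beside 5.37%), USO1, ATF6, MBTPS2, MIA3 and GBF1 among those that rose and PRDX4, ERP29, YIF1A, SURF4 and SRPRA among those that fell.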

How the data were processed

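The authors deposited whole-number read counts per gene, not normalised, and TPM values, per the file headers. The submitters' processing notes name build Sscrofa11.1. The aligner, counter, annotation and strand setting were not given in the sources used here. The labels state 360 oocytes, not whether that is per group or in all. Rows naming a date (25 of 19296) were left out, with 0.147% to 0.164% of counts per library. Counting error is largest in large-follicle library 3, the shallowest.

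Groups were compared by the quasi-likelihood F test of edgeR 4.0.16 in R 4.3.3, on all genes that passed filterByExpr, with TMM factors, robust estimation and group alone. Each log2 difference (large minus small follicles) has as its SE its own size divided by the square root of F. The threshold was a Benjamini-Hochberg adjusted p of 0.05 over all genes. DESeq2 1.42.0 and limma 3.58.1 (log2 of TPM plus a pseudocount of 1) were alternatives. Log2 CPM for deviations used a prior count of 2. For the pathway and marker lists, 853 rows named by an Ensembl identifier were given a symbol that repeated no other name. The scripts were tested on simulated counts.

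Members, roles, pathway lists and marker lists were chosen with earlier results of these data known. Values per library are given for members with an unadjusted p under 0.05, those without overlap, the 6 with the highest TPM and the 2 with the smallest p of each role. Of each pathway list the 2 with the smallest p are named, and P4HB, HERPUD1 and SRP54 besides. Counts of libraries of 1 group differed beyond sampling noise (ratio of chi-square to its degrees of freedom, 10.4 to 22.2), so no library was counted as a repeat of another. This does not show that they came from separate animals.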

Additional observations from a re-analysis of the deposited data

How the results depend on the processing

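With all 6 libraries no member passed under any other setting tried except DESeq2's own test (1 higher, 1 lower). The count of all genes called, 2 higher and 7 lower, varied with the setting. It was 0 and 0 in edgeR scaled by DESeq2's size factors and by limma on log2(TPM + 1) (2525 and 2193 genes at an unadjusted p under 0.05), 366 and 313 by DESeq2, 9 and 43 without a filter, 13 and 29 with the length trend removed and 4 and 20 with a replicate block. The count of lower genes was 12 with library size alone and 18 at a filter of 5 CPM. Leaving out 1 library gave 0 to 1124 higher and 0 to 775 lower genes (1448 to 4143 at an unadjusted p under 0.05), 0 to 5 higher and 0 to 4 lower members, and 0 to 8 higher and 0 to 13 lower pathway genes, the highest each without large-follicle library 3. Pathway genes called were 4 higher and 8 lower by DESeq2, beside the 366 and 313 among the 19271 genes it was given. They were 1 lower without a filter.

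Members at an unadjusted p under 0.05 numbered 1 to 8 higher and 1 to 9 lower without 1 library. They were 2 higher and 8 lower with library size alone, 1 higher by limma, 2 higher with the replicate block and 7 lower without a filter. Library size alone shifted the median of all genes to -0.049 and that of the members to -0.066; the median of the members was -0.030 to -0.0031 without 1 library. The correlation of deviations from the group mean was -0.095, 0.0028 and -0.16 for same-numbered libraries, and -0.0777 to 0.135 for the other pairs. With 3 libraries per group these values cannot settle whether the numbers pair the libraries, which the labels do not say. The block changed no member's call.

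Signs changed only for members with a log2 difference of 0.125 or less in size, SEC24B having the largest. With library size alone SSR1 was at -0.018, SEC11A at -0.0037, SEC31A at -0.024, COPA at -0.025, TMED5 at -0.013 and SEC22C at -0.043. SEC22C was also at -0.014 without a filter, -0.017 at 5 CPM, -0.014 by limma and -0.00069 with the block. With the length trend removed PDIA5 was at 0.0061, SEC22B at -0.0067, SEC22C at -0.023 and SEC14L1 at 0.0083. Without 1 library the values ran from -0.061 to 0.026 for SEC61A2, -0.10 to 0.089 for SEC61B, -0.010 to 0.068 for SSR1, -0.082 to 0.12 for SEC11A, -0.22 to 0.028 for SEC11C, -0.11 to 0.052 for PDIA5, -0.023 to 0.23 for SEC24B, -0.067 to 0.12 for SEC31A, -0.0077 to 0.071 for COPA, -0.085 to 0.031 for COPZ1, -0.11 to 0.35 for TMED1, -0.012 to 0.061 for TMED5, -0.044 to 0.088 for SEC22C and -0.096 to 0.067 for SEC14L1. The cause of these changes was not tested. Depth limits TMED1, SEC14L3 and SEC14L5, which stayed under 1 CPM on average in both groups.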
